A study of Drosophila melanogaster with 6 samples.

Results

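Regions with listed peaks of the microprotein Simba2 in both batches of a DamID experiment in Drosophila larval brains are described here. They are the peaks of Dam-Simba2 batch 1 and Dam-Simba2 batch 2 that overlap by 1 bp or more on the 6 chromosome arms (2L, 2R, 3L, 3R, 4 and X), merged into 11115 regions. All peak lists of the study together, those of the related protein Simba1 included, merge into 55460 regions on these arms. Each Dam-Simba2 list was called by the submitters against the library of Dam alone from the same batch.

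In DamID, a protein is fused to Dam, a bacterial enzyme that methylates the adenine of GATC sequences. DNA near the places where the fusion protein sits gains methyl groups, and the enzyme DpnI then cuts only methylated GATC, so these fragments can be amplified and sequenced. Dam alone methylates whatever chromatin it can reach, and its library serves as the background. The title of the study places Simba2 in Wingless (Wg) signalling, the Drosophila Wnt pathway, during the reactivation of neural stem cells (NSCs). In the fly brain NSCs stop dividing late in embryogenesis and resume division in the larva in response to nutrition, through insulin signalling.

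Both groups carried grh-Gal4, which drives expression in NSCs, and tub-Gal80ts, a temperature-sensitive block of Gal4. The Dam-Simba2 group carried UAS-Dam-Simba2 and the control group UAS-Dam, with 1 library of each group in each of 2 batches. Embryos from a 4 h collection spent 44 h at 18 °C and the larvae then 24 h at 29 °C before dissection. Per the labels, the tissue was brain and the cell type NSCs: the cell type rests on the driver, and peaks hold no expression values against which markers of NSCs could be checked. A larger share of cells with methylation at a site and more methylation per cell cannot be told apart in such libraries.

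After removal of duplicates, Dam-Simba2 had 1069703 reads in batch 1 and 1267661 in batch 2, and Dam alone had 868080 and 1321104. On the arms the submitters' lists held 21727 peaks in batch 1 and 33465 in batch 2, covering 7.88% and 12.4% of the arms. No peak had been dropped for its q, and 53.4% and 57.3% of these peaks had a q of 0.05 or lower. Such a q compares the reads of 1 fusion library with those of 1 Dam library. With 1 library per group in each batch, and values of the Dam libraries known only as the background at peaks, no test between the groups was made, and what follows is a description.

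Of the batch 1 peaks, 11281 lay in a region of both batches, 51.9% (95% exact Clopper-Pearson interval 51.3 to 52.6). Of the batch 2 peaks, 11293 did so, 33.7% (33.2 to 34.3). The intervals cover counting error only. The shares have different denominators, since the list of batch 2 is longer. A single peak of each batch made up 97.1% of the regions, and no region joined more than 3 peaks of a batch. At the limit of the rule, 21 pairs of peaks shared 10 bp or fewer, with a median summit pileup of 4.06 in batch 1, and 15 batch 1 peaks ended within 10 bp of a batch 2 peak without touching it, with a median of 6.49.

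Strong peaks recurred more often than weak ones. In batch 1 the share of peaks in a region of both batches went from 42.6% (41.6 to 43.5) at a q above 0.05 to 83.5% (77.8 to 88.2) at a q of 1e-10 or lower, which 212 peaks reached. In batch 2 it went from 24.2% (23.5 to 24.9) to 66.3% (62.0 to 70.4), with 507 peaks in the strongest class. The share also went with width, from 42.2% of peaks under 350 bp to 67.6% of peaks of 1000 bp or more in batch 1, and from 20.4% to 52.8% in batch 2. Among peaks of 350 bp to under 500 bp, the shares at a q above 0.05 and at a q of 1e-05 to 1e-10 were 45.4% and 72.8% in batch 1, and 28.2% and 42.4% in batch 2. Over all widths the same classes had 42.6% and 73.6%, and 24.2% and 53.8%.

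**Figure D1:**
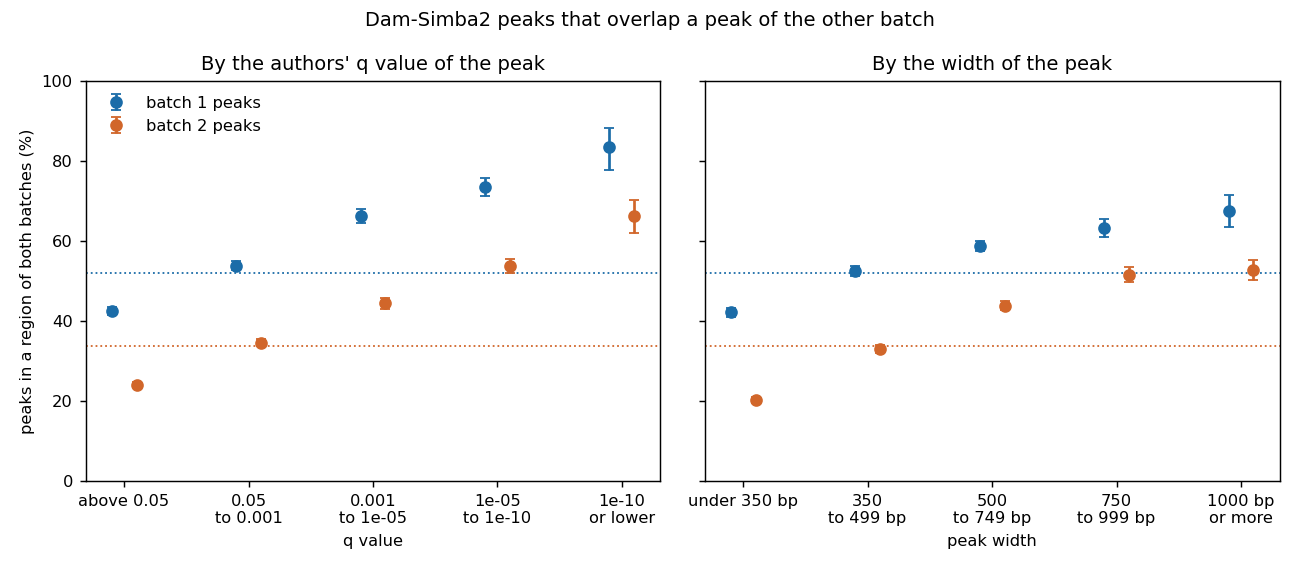
Share of Dam-Simba2 peaks (%, y axis) that overlap a peak of the other batch, by the authors' q value (left) and by peak width (right). Points are peaks of batch 1 (blue) and batch 2 (orange), bars are 95% exact binomial intervals and dotted lines the shares over all peaks (51.9% and 33.7%). In both batches the share is lowest for peaks with a q above 0.05 and highest at a q of 1e-10 or lower.

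The regions had a median width of 623 bp (quartiles 485 and 810), and together they covered 5.72% of the arms. Widths of 1 kb or more were found at 1296 regions (11.7%), and 2 kb or more at 53. The summits of the best peaks of both batches lay a median of 76 bp apart (quartiles 29 and 167), a distance that the overlap rule keeps short, and 59.1% of regions had summits within 100 bp. In the 1636 regions with a q of 0.001 or lower in both batches the median distance was 49 bp. The 5183 regions with a q of 0.05 or lower in both batches were 46.6% of all regions, and 1615 (14.5%) had a q above 0.05 in both.

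Summit pileup is the number of extended reads over the summit, scaled to the smaller library, so that 1 read counts 0.812 in batch 1 and 1 in batch 2. The best peaks of the regions had a median pileup of 10.6 in batch 1 (quartiles 6.49 and 17.0) and 14 in batch 2 (9 and 22), which are 13.0 and 14 reads. The Dam background at these summits had medians of 3.00 and 4.55, and the fold enrichment, as the authors' peak caller gave it, medians of 2.86 and 2.58. The background lay below the average of the arms (1.81 and 2.64) at 28.6% of regions in batch 1 and 24.2% in batch 2, and with such peaks left out, a choice made after seeing the data, 7027 regions remained. Peaks that lay in 1 batch alone had lower medians of pileup, 6.49 in batch 1 and 9 in batch 2, and of Dam background, 1.70 and 2.88. Their fold enrichments were near those of the recurring peaks (2.74 against 2.86 in batch 1 and 2.40 against 2.57 in batch 2, medians over all peaks of each kind).

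Across the 11115 regions, pileup ranked much alike in both batches (Spearman's rho = 0.781), and so did the Dam background of the separate Dam libraries (rho = 0.722). Within a batch, pileup and Dam background ranked together (rho = 0.843 in batch 1 and 0.817 in batch 2). The ranks of fold enrichment were hardly related between batches (rho = 0.0944), and those of -log10 q weakly (rho = 0.243). These are correlations across regions, which share libraries and the sequence of the genome, and no p is given. A region with high coverage in one batch was thus usually one with high coverage in the other, for Dam-Simba2 as for Dam. Fold enrichment over Dam hardly carried over in rank among these regions. All of them had been called above Dam in both batches, which bounds fold enrichment from below and ties pileup to the background.

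**Figure D2:**
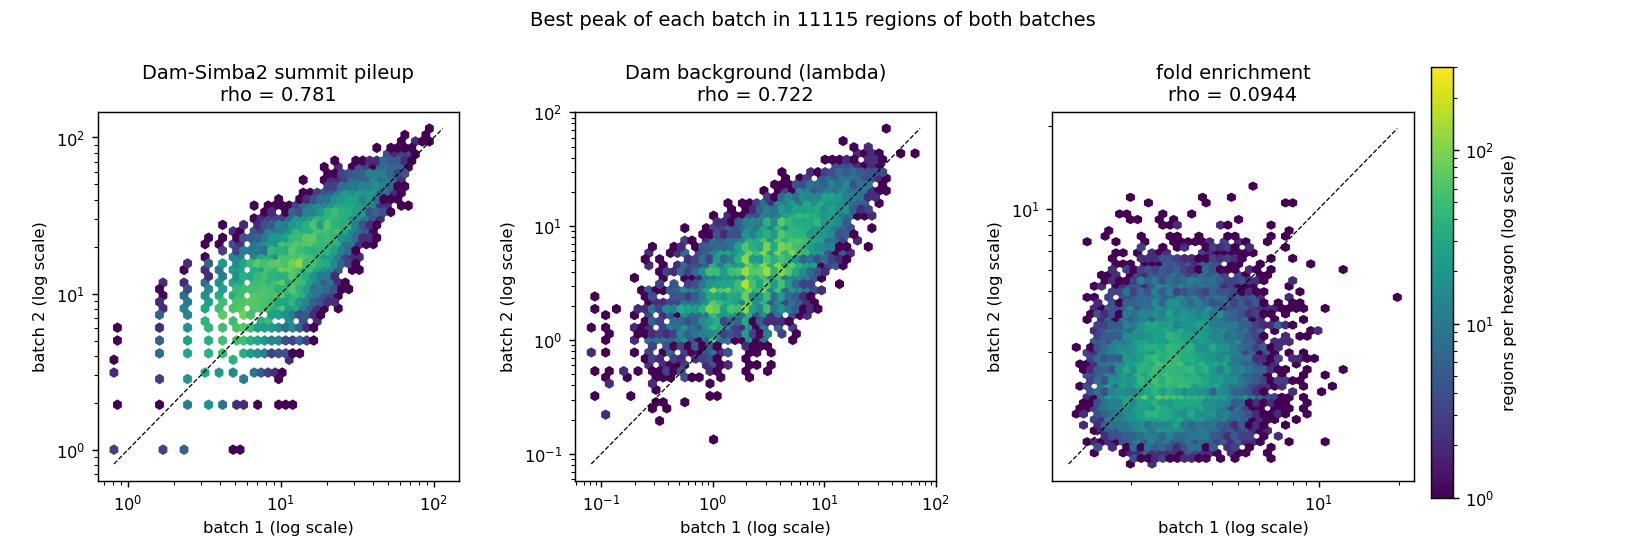
Values of the best peak of batch 1 (x axis) and batch 2 (y axis) at the 11115 regions, all axes logarithmic, with colour for the number of regions and a dashed line of equality. Summit pileup (left, scaled reads) and Dam background (middle, scaled reads) lie along a diagonal, with rho of 0.781 and 0.722, and fold enrichment (right, a ratio) forms a round cloud, with rho of 0.0944.

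The 20 regions with the highest mean rank by q held summit pileups of 17.0 to 90.1 in batch 1 and 28 to 102 in batch 2, at 2.94- to 12.3-fold and 2.72- to 10.3-fold enrichment. Their summits lay 2 to 149 bp apart, within 50 bp at 15 of the 20, against 38.0% of all regions. Of these regions, 13 were inside the span of a gene, 5 crossed an end of a gene span, one of which was also inside another gene, and 3 lay over 1 kb from any gene.

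The highest region lay between genes (3L, 8225452 to 8226133), 2498 bp from CG13678 and 3090 bp from eIF4E3, a gene for a cap-binding translation factor. Its pileup was 61.7 in batch 1 and 61 in batch 2, over Dam backgrounds of 14 and 9.60. The third region was also intergenic (3L, 15756016 to 15756899), 1126 bp from lncRNA:CR46197, with pileups of 28.4 and 39 over 2.79 and 3.75. Another such region stood 11th (2L, 11293112 to 11294622), 2034 bp from lncRNA:CR43409, with pileups of 35.7 and 45 over 4.00 and 9.60. These regions were 4.18- to 8.42-fold enriched over the batches, a height above Dam that the ranking by q selects for.

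Genes of signalling and of the cell cortex held several of the other regions. The second stood inside the gene of the G protein-coupled receptor Smog (smog; 2L, 4855564 to 4857384), with pileups of 36.5 and 38 over Dam backgrounds of 4.74 and 3.84 and summits 5 bp apart. Inside Moe, the gene of moesin, which links actin to the cell membrane, a region of 442 bp (X, 8891014 to 8891455) had 67.4 and 74 over 16.2 and 22.1. SIFaR, the receptor gene of the neuropeptide SIFamide (3R, 21285721 to 21286648), had 32.5 and 59 over 5.02 and 11.8. At nAChRalpha6, a nicotinic acetylcholine receptor subunit gene (2L, 9809822 to 9811111), pileup was 17.0 and 37 over 1.39 and 2.68. All 4 were inside the gene span. Task6, a potassium channel gene, and its neighbour CG9588 shared a region of 2094 bp across their ends (3R, 13673340 to 13675433), with 55.2 and 54 over 13.7 and 14.5.

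Genes of transcriptional and RNA regulators held others. Snoo, the gene of a corepressor related to the Ski and Sno proteins (2L, 7973684 to 7974811), had pileups of 29.2 and 60 over 3.07 and 15.4. Dsp1, a gene for a high-mobility-group protein, shared a region across its end with CG9921 (X, 16333484 to 16334324), with 63.3 and 88 over 13.4 and 31.7. The region in ewg, a transcription factor gene (X, 276721 to 277205), had 42.2 and 45 over 8.0 and 10.6. Tet, the gene of a homologue of the mammalian Tet dioxygenases (3L, 2866874 to 2867445), had 50.3 and 52 over 10 and 13.4. In mub, which encodes an RNA-binding protein with KH domains (3L, 21912227 to 21913291), pileup was 37.3 and 29 over 5.0 and 4.28. In scaled pileup 16 of the 20 regions were higher in batch 2, but in reads 12 of the 20 had fewer there. phyl, whose product acts in cell fate in the sensory organs and eye (2R, 14430234 to 14430726), had 45.4 and 45 over 7.81 and 9.60.

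The rest of the 20 lay at pairs or groups of neighbouring genes, or in genes with little known function. A region of 664 bp (2L, 574235 to 574898) reached the inositol phosphate kinase gene Ipk2, cold and the flank of Ptth, the gene of the prothoracicotropic hormone, with pileups of 47.1 and 71 over 8.0 and 18.2. Another reached wol, a gene for an enzyme of protein glycosylation, and Scgalpha (2L, 8302105 to 8302670), with 48.7 and 56 over 11.0 and 9.37. The region at CG6610, CG13295 and ssp6 (3L, 6075284 to 6075756) had the highest coverage of the 20, 90.1 and 102 over 30.0 and 36.1. Mhcl, a gene related to myosin heavy chain, with sxe2 (3R, 16083330 to 16083902), ATP8A, a gene for a lipid flippase, with CG30060 (2R, 13424108 to 13424879), and CG42238 (2L, 21043891 to 21044523) completed the set. CG42238 had the highest fold enrichment of the 20 in batch 1, 12.3, over a Dam background of 1.00, against 5.99 in batch 2.

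**Figure D3:**
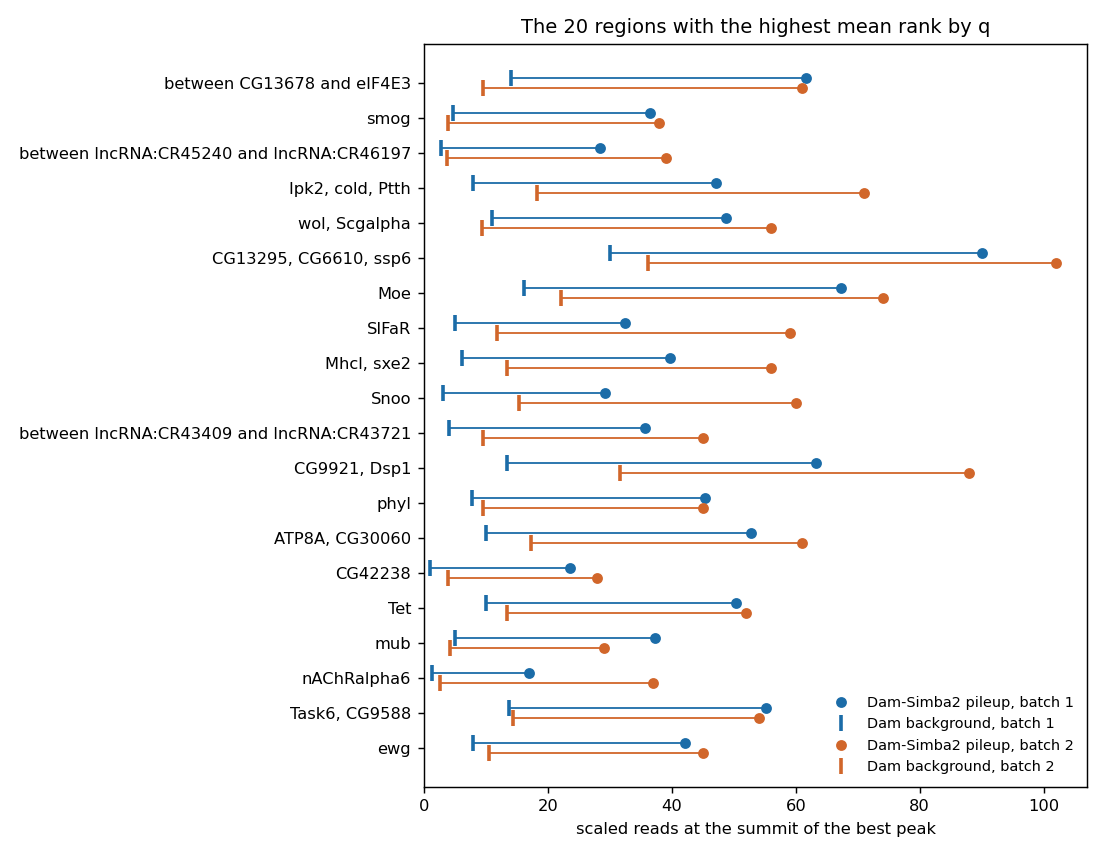
Summit pileup of Dam-Simba2 (circles) and Dam background (ticks), in scaled reads (x axis), for batch 1 (blue) and batch 2 (orange) at the 20 regions with the highest mean rank by q, named by their genes or, where none lies within 1 kb, by the nearest gene on either side. The pileup is 17.0 to 90.1 in batch 1 and 28 to 102 in batch 2, above the background in every region, which the choice by q ensures.

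High coverage alone picked other places. The region with the highest mean rank by pileup lay at 28SrRNA-Psi:CR45859, an rRNA pseudogene near the end of the X chromosome (X, 23216871 to 23217599), with 93.3 and 114, but over Dam backgrounds of 37.0 and 72.0, so that it was 2.48- and 1.58-fold enriched. A neighbouring region at 18SrRNA-Psi:CR41602 had 82.8 and 95 over 65.0 and 42.2. The others of the 5 highest were the region at CG6610 already given, 1 inside CG42748 (2L, 22134369 to 22134766; 93.3 and 91) and 1 in the flanks of CG3735 and Taldo, a transaldolase gene (2R, 23939768 to 23940332; 76.3 and 93).

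The widest regions mostly had little coverage. The widest spanned 9574 bp near the start of 3L (28156 to 37729), 1847 bp from mthl8, with pileups of 2.43 and 2, which are 2 to 3 reads. Those inside Pzl (3R, 3229210 to 3238105), a gene related to the ion channel gene Piezo, and Myo81F (3R, 1735167 to 1738702), a myosin gene, had 0.81 and 3 and 1.62 and 5. In batch 1 the Dam backgrounds of these regions were 0.0817, 0.0822 and 0.0824, next to the smallest value the peak caller could use there. In batch 2 they were 0.535, 0.321 and 1.34. A region of 4635 bp inside Ggamma30A, a G protein gamma subunit gene (2L, 9268949 to 9273583), stood apart, with pileups of 20.3 and 15. Its Dam background was 0.0838 in batch 1, likewise next to that smallest value, and 2.41 in batch 2, which gave 19.6- and 4.69-fold. The region in unc-5, the gene of a netrin receptor (2R, 15342099 to 15345998), had 5.68 and 10 over 0.307 and 0.482.

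Regions were spread over all arms. They numbered 83.6 to 86.6 per Mb on 2L, 2R, 3L and 3R, 69.8 per Mb on X and 139 per Mb on chromosome 4, the small, largely heterochromatic chromosome. On chromosome 4, 58.9% of batch 1 peaks (53.3 to 64.3) and 47.8% of batch 2 peaks (42.8 to 52.9) were in such a region, against 51.2% to 53.4% and 33.7% to 36.4% on 2L, 2R, 3L and 3R, and 50.6% (48.9 to 52.4) and 29.4% (28.2 to 30.6) on X. Gene spans were overlapped by 75.3% of regions, a further 5.60% reached only the 1 kb beside a gene, and 2125 regions (19.1%) lay farther out. Gene spans make up 69.5% of the arms, and 77.1% with 1 kb added on each side.

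A gene was assigned a region when the region overlapped its span or the 1 kb on either side. Of 17684 genes, 7743 had a region of both batches (43.8%), 4867 had one with a q of 0.05 or lower in both batches (27.5%) and 1978 one with a q of 0.001 or lower in both (11.2%). These shares are the background for the gene lists below. A further 1495 genes had peaks in both batches that did not overlap, 16.5% of the 9068 genes with peaks in both. Most genes with a region had a single one (5171, 66.8%), and 80 had 10 or more. Long genes were reached most often: of 10 classes of equal size by span, the shortest had a region at 25.6% of genes and the longest, from 11550 bp on, at 87.5%. Classes 7, 8 and 9, counted from the shortest, had 42.5%, 48.5% and 61.3%. Each list below is set beside 1 class, that of its median span, although its members fall in several. The comparison is therefore rough, and a difference from it can come from the mix of spans. Genes with the most regions were the very long genes Myo81F (92 regions), Pzl (42), CG17684 (30), DIP-lambda (29) and kirre (29), which came to 0.468 to 0.761 regions per 10 kb.

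Wg/Wnt genes had a region of both batches at 26 of 36 (72.2%, against 43.8% of all genes). Their median span was 10860.5 bp, and 61.3% of all genes in the span class of that length had a region. With a q of 0.001 or lower in both batches the count was 11 of 36 (30.6%), against 11.2% of all genes and 14.8% in that class. Many genes of the list, fz, fz2, dally and pan among them, are in the longest class instead. That class had 87.5%, and 30.6% at a q of 0.001 or lower in both, so an excess over genes of like span cannot be read from these shares. No gene of the list lacked peaks altogether, but at 10 of them the batches shared no region. The counts are descriptions, and nothing particular to the pathway is drawn from them.

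The counts by role that follow stand against the same 43.8% of all genes and 61.3% in the span class. Among the ligand genes, 5 of 7 had a region: Wnt4, Wnt6, Wnt10, Wnt2 and wntD. Their coverage was low to moderate. Wnt4 had pileups of 19.5 and 21 (batches 1 and 2) over Dam backgrounds of 7.53 and 7.23, with summits 2 bp apart (2L, 7272752 to 7273127). Wnt6 had 8.12 and 14 over 1.95 and 2.41, and Wnt10 12.2 and 10 over 2.79 and 4.28 in its flank. The region of Wnt2 crossed the end of its span and was shared with brp, with 5.68 and 6 over 0.642 and 2.41. In batch 2 the best regions of Wnt10 and Wnt2 had a q above 0.05. At wntD the region lay in the flank, beside CG8773 (3R, 13293508 to 13294823), with 4.87 and 15 over 0.670 and 1.15. The gene wg itself, the main ligand, had 3 peaks in batch 1 and 1 in batch 2, which did not overlap. Neither por nor wls, which act in making and secreting Wnt proteins, had a region: por had peaks in batch 2 alone and wls in batch 1 alone.

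Receptor genes had a region at 6 of 7. The highest in rank was at Ror, a receptor tyrosine kinase gene (2L, 10250523 to 10250967), with 58.4 and 68 over 21.0 and 24.0, in the flank and shared with bsk and CG31717. Inside the long gene of the Wg receptor fz, which held 10 regions, the best (3L, 14300301 to 14300889) had 22.7 and 35 over 6.14 and 8.64. fz2 also held 10, the best with 12.2 and 14 over 3.35 and 2.73. drl, which encodes a Wnt5 receptor (2L, 19205393 to 19205865), had 13.8 and 26 over 2.57 and 3.84. The receptor genes fz3 (10.6 and 21 over 3.00 and 2.44) and otk (21.1 and 25 over 9.0 and 8.64) held 3 and 2 regions. The co-receptor gene arr had 1 region with low values, 4.06 and 10 over 1.81 and 4.82, at a q above 0.05 in both batches.

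Both glypican genes, whose products bind Wg at the cell surface, had regions inside their spans. dlp (3L, 14636736 to 14637248) had pileups of 21.9 and 28 over 3.35 and 5.09, and dally (3L, 8832489 to 8833453) had 34.1 and 61 over 11.7 and 15.3. At nkd, a gene whose product damps Wg signalling (3L, 19025237 to 19026099), coverage was 24.4 and 43 over 8.0 and 13.4, whereas the peaks of Notum, the other inhibitor gene listed, lay apart. Of the cytoplasmic components, 4 of 8 had a region: the kinase genes sgg (24.4 and 14 over 2.23 and 3.48) and gish (11.4 and 18 over 3.00 and 6.32), Apc, part of the complex that destroys beta-catenin (14.6 and 28 over 4.00 and 7.68), and slmb, a ubiquitin ligase gene (41.4 and 44 over 17.0 and 24.9, in its flank). Axn, Apc2 and CkIalpha had peaks in both batches that did not overlap, and dsh had 1 peak in batch 1 alone.

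The nuclear effector genes had a region at 7 of 7, a small group beside the 43.8% of all genes and the 61.3% in the span class of the whole list. That of arm, the beta-catenin gene, crossed the end of the span next to mRpL16 (X, 1891153 to 1891587), with pileups of 34.9 and 25 over 6.14 and 4.55, 5.03- and 4.68-fold. lgs, which encodes the adaptor between beta-catenin and Pygopus (4, 439038 to 439448), had 28.4 and 40 over 6.0 and 11.5. At pan, the gene of the transcription factor TCF, the best region was in the flank (4, 68686 to 69318), with 45.4 and 68 over 19.8 and 27.8. The corepressor genes CtBP (16.2 and 28 over 4.18 and 8.64) and gro (18.7 and 20 over 9.0 and 3.84), the coactivator gene pygo (7.30 and 13 over 1.90 and 4.80) and hyx, a gene for a subunit of the Paf1 complex (13.8 and 30 over 5.02 and 10.6) completed the group. Both pan and lgs lie on chromosome 4, where 82 of 114 genes (71.9%) had a region. The region of gro had a q above 0.05 in batch 1. Within the group, only arm, pan, lgs and CtBP had a region at a q of 0.001 or lower in both batches.

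**Figure D4:**
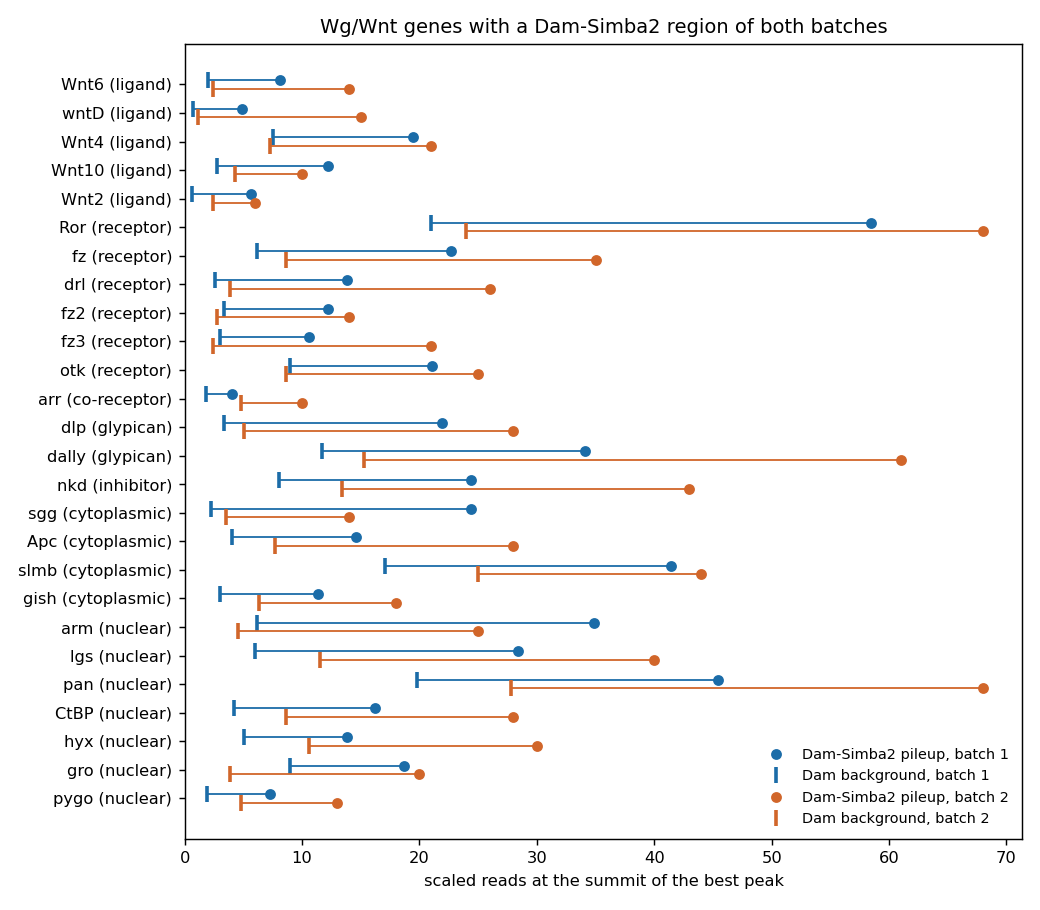
Summit pileup of Dam-Simba2 (circles) and Dam background (ticks), in scaled reads (x axis), for batch 1 (blue) and batch 2 (orange) in the best region of the 26 Wg/Wnt genes with a region of both batches, ordered by role. Coverage ranges from 4.06 and 10 at arr and 5.68 and 6 at Wnt2 to 58.4 and 68 at Ror.

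Genes that act in NSCs gave shares near or above that of the class of each list's median span. The lists also held genes of the longest class, such as InR and Fas3, and shorter ones, such as Thor and Cul4. No excess over genes of like span is therefore read from them. Insulin, PI3K and TOR genes had a region at 18 of 23 (78.3%, and 61.3% of all genes in the span class of the list's median), and 9 of 23 had one at a q of 0.001 or lower in both batches (39.1%, against 11.2% of all genes and 14.8% in the class). Other lists with that class had like or lower shares at this limit. Quiescence and reactivation regulators had 38.9%, as did Polycomb, Trithorax and remodeller genes. G protein genes had 36.8%, and actin and cell cortex genes 33.3%. The Wg/Wnt list had 30.6%, NSC identity and asymmetric division genes 22.7% and glia markers 8.33%. Akt, a kinase gene of the pathway, had pileups of 17.9 and 24 over Dam backgrounds of 4.00 and 2.33 in its flank, and slif, an amino acid transporter gene, 20.3 and 27 over 2.79 and 8.64. The region at Ilp6, an insulin-like peptide gene, was shared with Raf (35.7 and 46 over 5.02 and 19.2). Regulators of NSC quiescence and reactivation had one at 15 of 18 (83.3%, against 61.3%), among them sty, an inhibitor of receptor tyrosine kinase signalling (67.4 and 47 over 8.65 and 16.3), Fas3, an adhesion gene (26.8 and 46 over 6.14 and 9.60), and Patronin, a gene for a protein of microtubule minus ends, in its flank (48.7 and 58 over 16.2 and 19.2).

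NSC temporal factors, which NSCs express in turn, had a region at 16 of 19 (84.2%, against 87.5% in the class of the list's median), and at a q of 0.001 or lower in both batches at 9 of 19 (47.4%, against 30.6%). The highest was inside grh (2R, 17831828 to 17832411), the gene whose enhancer lends its name to the driver, with 25.2 and 44 over 4.69 and 5.76, and grh held 5 regions. svp, a nuclear receptor gene, had 30.0 and 40 over 4.19 and 11.5, the Pax6 gene ey 19.5 and 31 over 2.68 and 9.10, and Syp, an RNA-binding protein gene, 27.6 and 25 over 7.0 and 5.78. NSC identity and asymmetric division genes had one at 13 of 22 (59.1%, against 61.3%): among them wor, a Snail-family gene of NSCs (54.4 and 47 over 17.0 and 14.4), and the fate determinant genes numb (32.5 and 51 over 8.0 and 16.3) and brat (39.0 and 61 over 13.7 and 16.1). ase, insc, aPKC and pins had none.

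Other signalling and housekeeping lists lay on both sides of the class of their median span. Actin and cell cortex genes had a region at 15 of 18 (83.3%, against 61.3% in the class), with Moe, given above, Rho1 (30.0 and 42 over 4.83 and 15.3) and cher, the filamin gene (22.7 and 27 over 4.74 and 5.76). That list also held genes of the longest class, such as shot and kst, and shorter ones, such as sqh and tsr. An excess over the 61.3% is therefore not read from it. Cell cycle and replication genes had 16 of 26 (61.5%, against 42.5%), among them Dp, the gene of the partner of E2F (64.9 and 58 over 24.0 and 16.3). The region of highest rank in that list reached the flank of CycD, the cyclin D gene (51.1 and 61 over 14 and 18.2), by its batch 2 peak only, and no batch 1 peak lay within 1 kb of CycD. Ribosomal protein genes had 45 of 92 (48.9%, against 34.2%), led by RpL29 in its flank (27.6 and 24 over 4.00 and 4.80). The fractions were 12 of 19 for G protein genes (63.2%, against 61.3%), 12 of 18 for Polycomb, Trithorax and remodeller genes (66.7%, against 61.3%), 10 of 18 for Notch genes (55.6%, against 48.5%, but 5.56% against 10.9% at a q of 0.001 or lower in both batches), 11 of 13 for Hippo genes (84.6%, against 87.5%) and 12 of 18 for EGFR/MAPK genes (66.7%, against 87.5%). The Hippo and EGFR/MAPK lists also held shorter genes, such as yki (2511 bp) and Ras85D (2507 bp). The class of these genes had 42.5%, so the 87.5% is too high a mark for both lists. Hox genes had 7 of 8 (87.5%, the share of their span class).

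Genes of differentiated cells were reached too. Axon guidance and adhesion genes, which are long, had a region at 32 of 33 (97.0%, against 87.5% in the span class), and 17 of them (51.5%, against 30.6%) at a q of 0.001 or lower in both batches. The best was inside Dscam1, an axon guidance receptor gene (2R, 7378884 to 7379323), with pileups of 64.9 and 77 over 23.4 and 19.2, and CadN held 17 regions. Neuron markers had one at 13 of 14 (92.9%, against 87.5%), channel genes at 16 of 19 (84.2%, against 87.5%) and Dpr and DIP genes, for adhesion between neurons, at 24 of 32 (75%, against 87.5%). At a q of 0.001 or lower in both batches these lists had 28.6%, 21.1% and 21.9%, against 30.6%. Among the neuron markers, ChAT and VAChT share 1 region. Glia markers had one at 6 of 12 (50%, against 61.3%), which were nrv2, Nrx-IV, alrm, Eaat1, Tret1-1 and gcm, and 1 of them, nrv2, at a q of 0.001 or lower in both batches. The glia markers without one were repo, gcm2, moody, wrapper, Gs2 and Gli, of which Gli had a peak in each batch. Muscle markers had one at 8 of 12 (66.7%, against 87.5%), and blood cell and fat body markers at 5 of 10 (50%, against 42.5%). The muscle list also held shorter genes, such as Act57B (2411 bp), in a class with 42.5%. For that list the 87.5% is thus too high a mark. Odorant and gustatory receptor genes had one at 41 of 119 (34.5%, against 34.2%), 4 of them at a q of 0.001 or lower in both batches (3.36%, against 8.31%). Of the antimicrobial peptide genes, 8 of 20 had a region (40.0%, against 25.6%), but Drsl2, Drsl3, Drsl4 and, through its batch 2 peak only, Drsl5 share 1 region (3L, 3315300 to 3315793; 31.6 and 37 over 5.58 and 6.96).

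**Figure D5:**
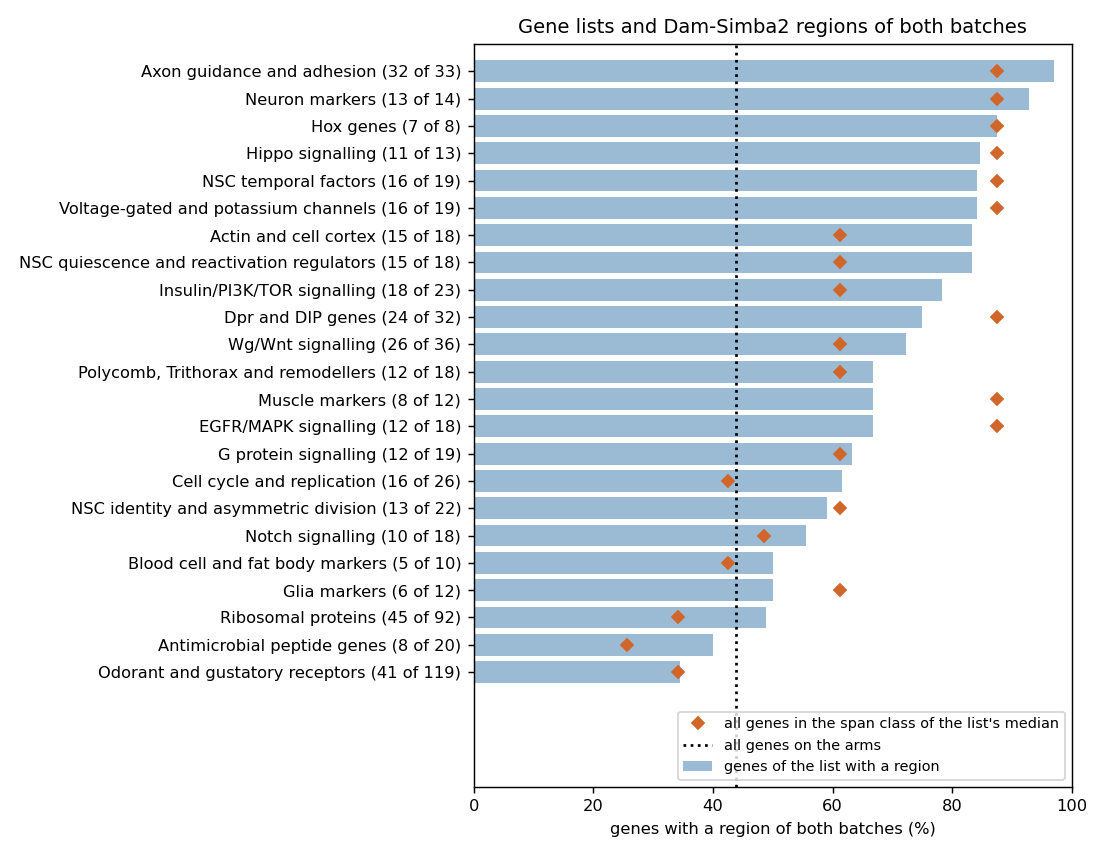
Share of the genes of each list with a Dam-Simba2 region of both batches (bars, %, x axis), with the share among all genes in the span class of the list's median span (diamonds) and among all genes on the arms (dotted line, 43.8%). The counts stand beside the names, and axon guidance and adhesion genes, which are long, have the highest share (97.0%). Shares lie on both sides of the diamonds.

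Each batch also held peaks alone: 10446 in batch 1 (48.1% of its list) and 22172 in batch 2 (66.3%). They were narrower, with median widths of 389.5 and 385 bp against 452 and 503 bp for the peaks of each batch in a region of both, a difference that the overlap rule favours. A q of 0.001 or lower was reached by 1429 of them in batch 1 (13.7%) and 4162 in batch 2 (18.8%), against 28.7% and 35.8% of the recurring peaks. For 41.8% of the batch 1 peaks alone, a batch 2 peak lay within 1 kb. Batch 2 peaks were dense, at 241 (X) to 292 (chromosome 4) per Mb. The share for places drawn without regard to peaks was not computed, so the 41.8% is not a measure of near misses. Genes with a peak in batch 1 and none in batch 2 numbered 1346 (7.61%), those with a peak in batch 2 and none in batch 1 4613 (26.1%), and 2657 genes (15.0%) had no peak in either. Of the genes counted for batch 1 alone and batch 2 alone, 42 and 128 were also reached by a merged region of both batches, through the peak of that batch.

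Some peaks of a single batch had coverage like that of the best shared ones. The 6 strongest of batch 1 had pileups of 21.1 to 35.7 over Dam backgrounds of 1.00 to 3.91. They included peaks inside Nrx-IV, a gene of septate junctions (3L, 12147192 to 12148114; 34.9 over 3.71), unc-4, a homeobox gene (X, 17774452 to 17775327; 21.1 over 1.00), neur, a Notch pathway ligase gene (3R, 9033350 to 9034237; 33.3 over 3.57), and tna (3L, 10852919 to 10853694; 21.9 over 1.14), 1 in the flank of lncRNA:CR43652 and 1 away from genes (3L, 9240261 to 9240758). At Nrx-IV, tna and the last of these a batch 2 peak lay 175, 242 and 191 bp away, and at the other 3 it lay 2175 to 3508 bp away.

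The 6 strongest of batch 2 had pileups of 26 to 92, and the nearest batch 1 peak lay 1190 to 9193 bp away. The first was at Ste:CG33244 and Ste:CG33245, members of the repeated Stellate family on X (14050125 to 14050576), with 92 over 20.2. Near-identical copies can share reads, so this value is uncertain. The others were at tra2, a splicing factor gene, with CG12868 (2R, 14604264 to 14604637; 91 over 24.4), beag with the flank of Kdm2, a histone demethylase gene (3R, 9063405 to 9063990; 26 over 1.85), the flanks of pwn and CG31689, and a place with no gene within 1 kb (3R, 10382859 to 10383263; 53 over 9.60). Absence from the other list means only that no peak was listed there.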

How the data were processed

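DamID libraries of Dam-Simba2 and Dam alone from 2 batches were sequenced as paired reads of 250 bp, per the labels' protocols. Per the submitters' processing notes, bcl2fastq 2.19.0.316, FastQC, Bowtie2 and ChIPseeker were used with build dm6. Per the file headers, MACS 3.0.0 compared each fusion library with Dam of its batch, unpooled, reading single ends, keeping 1 tag per position, with a fragment length of 279 bp and no effective q limit (1). The headers give an effective genome size of 2910000000 bp, 21.7 times the arms, which lowers the smallest background that MACS could use to 0.0832 (batch 1) and 0.122 (batch 2), where the arm average would be 1.81 and 2.64.

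Pileup, as deposited, is a coverage signal: extended reads over the summit, the larger library scaled down. The -log10 p and q values deposited come from the authors' Poisson test of pileup against the local Dam background. The deposited fold enrichment is the authors' ratio of pileup plus 1 to background plus 1. The background was recovered from this ratio, and p-values computed from it were within 0.01 (-log10) of the deposited ones for 99.9% (batch 1) and 100% (batch 2) of peaks.

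From these values, overlapping peaks were merged with Python 3.11.15 and pandas 2.3.3. A region took the peak with the highest -log10 q in each batch, and regions were ranked by the mean percentile of that value within each list. Gene spans were those of a RefSeq table in build dm6, which gives spans without strand or exons, so exonic or promoter positions and sequences are not given here. Overlap and assignment were tested on simulated data. Genes were named by rank: the 20 highest regions, the 5 widest, the 5 of highest pileup, the 5 genes with most regions, up to 4 genes per list, Wg/Wnt genes with a region and the 6 strongest peaks of each batch alone. One gene that this rule names is not reported here. Further genes of a list without a region were named after their values were seen. The members and the 23 gene lists were chosen with earlier results of these data known. Alternatives varied the overlap, q limit, list length, gene assignment, batch and Dam background.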

Additional observations from a re-analysis of the deposited data

Results flagged for a closer look

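Outside the 6 arms, on sequences that the comparisons above do not use, 376 regions held peaks of both Dam-Simba2 batches, and 106 of them (28.2%) had a q of 0.05 or lower against Dam in both, a smaller share than the 46.6% of regions on the arms. They drew attention as a signal above the Dam control in data left out of the main description. Unplaced scaffolds held 77 of the 106, the Y chromosome 26, the mitochondrial genome 2 and the ribosomal DNA 1. On Y the 157 regions had a median width of 1278 bp, and the widest spanned 42900 bp. Reads from repeated sequence can be placed at any of several copies, and how much this contributes was not tested.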

How the results depend on the processing

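With overlap of 50% of the shorter peak, 49.8% and 32.3% of batch 1 and batch 2 peaks lay in regions of both batches, and with summits within 250 bp 44.4% and 28.9%, at a median width of 588 bp. At a q of 0.05 or lower there were 5183 regions, with 45.2% and 27.3% of peaks, a width of 644 bp and 4867 genes, and at 0.001 or lower 1636 regions, with 35.2% and 20.1%, 658 bp, 1978 genes and 11 Wg/Wnt genes. Both lists cut to equal length gave 39.4% and 39.1%, at 640 bp. With a Dam background of at least the arm average, an alternative chosen after seeing the data, 7027 regions, 54.1% of batch 1 peaks and a width of 608 bp were left. A single batch gave 21727 to 33465 peaks and 10414 to 13681 genes, with no overlap asked. The Wg/Wnt count was 22 to 25 under the q limit of 0.05, equal list lengths, the Dam limit, spans without flanks and assignment by summits. No paired analysis was possible because the Dam libraries enter only through the authors' peak calls. A summit in the regions rests on a median of 13.0 to 14 reads, so single weak regions are uncertain.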

Other observations

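Genes of most short non-coding RNAs held regions about as often as all genes of the shortest span class. They are themselves part of that class, as are most rRNA genes, so the likeness is partly built in. A region of both batches lay at 66 of 269 snoRNA genes (24.5%), 79 of 290 tRNA genes (27.2%) and 62 of 260 miRNA genes (23.8%), against 25.6% of all genes in the shortest span class. lncRNA genes had one at 630 of 1959 (32.2%), with a median span of 662 bp, and the span class of that length had 31.6%. Protein-coding genes had one at 6579 of 13922 (47.3%), with a median span of 2163 bp, whose class had 39.6%. Such genes fall in several span classes, of which the longest had 87.5%, so this difference can come from the mix of spans. Of the rRNA genes on the arms, 1 of 98 had a region.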
